A study of Homo sapiens with 9 samples.

Results

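Zinc exporters, metallothioneins and the zinc sensor MTF1 were followed in MDA-MB-231, a human triple-negative breast cancer cell line, after knockdown of the zinc transporter ZIP7 (gene SLC39A7). The 10 genes were taken by name: MTF1, the metallothioneins MT1E, MT1X and MT2A, and the exporters SLC30A1, SLC30A4, SLC30A5, SLC30A6, SLC30A7 and SLC30A9. They are 10 of 58395 gene identifiers in the files and 10 of 16761 genes that passed the filter on low counts, so no member was lost to it. Total RNA was sequenced 96 h after reverse transfection with a nontargeting control siRNA (siNC), a first siRNA against ZIP7 (siZIP7_1) or a second one (siZIP7_2), given singly, with 3 libraries for each and 9 in all. The sample titles number the ZIP7 siRNAs differently, and the names siZIP7_1 and siZIP7_2 follow the order of the titles. Which of the study's siRNAs each one is, the titles alone do not say. All groups were cultured in DMEM with serum and antibiotics and were transfected, and no untransfected cells are among them. The design holds 1 cell line, 1 time point and 2 siRNA sequences, and the study describes these transfections as done in triplicate. The p-values therefore rest on the spread between libraries of the same group, all from 1 line. That spread was estimated jointly over the 3 groups and in part over genes. Because RNA came from whole cultures, fewer cells of a kind and less RNA per cell cannot be told apart.

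Cells keep free zinc very low. SLC39 (ZIP) transporters move zinc into the cytosol, from outside the cell or from organelles, and ZIP7 sits in the membrane of the endoplasmic reticulum and Golgi and releases stored zinc to the cytosol. SLC30 (ZNT) transporters move zinc the other way, out of the cytosol into organelles or out of the cell. Metallothioneins are small cysteine-rich proteins that bind zinc in the cytosol, and MTF1 is a zinc-finger transcription factor that binds metal response elements before metallothionein genes and SLC30A1 when zinc is available. Levels of these transcripts are therefore commonly read as an indirect measure of cytosolic zinc, and zinc itself was not measured in these libraries.

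The counts per library ranged from 24153785 to 30454419 reads on genes, so 3 counts, taken as the least that counts as detection, lay between 0.0985 and 0.124 CPM (counts per 1000000 reads on genes, here before the TMM scaling used below), a floor for counting error only. SLC39A7, the targeted gene, was at 321, 343 and 322 CPM with siNC, at 35.4, 32.9 and 38.6 CPM after siZIP7_1 and at 20.5, 19.5 and 17.6 CPM after siZIP7_2. Its 3 groups were apart, and 10.9% of the siNC level was left with siZIP7_1 and 5.84% with siZIP7_2. The line's expected genes VIM, CD44, CAV1, MSN and KRT18 lay between 168 and 5688 CPM in every library, ESR1 and PGR at no more than 0.582 CPM, and CDH1 at 0.363 to 1.28 CPM with siNC and siZIP7_2 and at 3.98 to 4.52 CPM with siZIP7_1. The 4 markers of other cell types given here are PTPRC, CD3E, LYZ and ALB, with CD3E at 0 or 1 read. They summed to 1.35 to 1.67 CPM with siNC, 0.816 to 1.06 CPM after siZIP7_1 and 0.461 to 0.790 CPM after siZIP7_2. The sum mixed directions with siZIP7_1, where LYZ fell and PTPRC rose. In the order siNC, siZIP7_1, siZIP7_2, mean LYZ was 1.06, 0.0465 and 0.311 CPM, and mean PTPRC 0.402, 0.875 and 0.327 CPM. A gene of the opposite strand, AC020656.1, overlaps 34% of the exonic length of LYZ. Reads outside annotated genes made up 7.43% to 8.28%, 7.80% to 9.62% and 9.99% to 11.5% of the reads in the same order, and the part of these differences in the results below was not tested.

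The comparisons were siZIP7_1 with siNC, siZIP7_2 with siNC and siZIP7_2 with siZIP7_1, all tested in a single edgeR quasi-likelihood fit with Benjamini-Hochberg adjustment over all 16761 genes and a threshold of 0.05. With siZIP7_1 all 10 members passed, where 70.7% of all genes tested passed. They were 7 higher and 3 lower, against 34.8% and 35.9% of all genes. Most genes of these libraries were past the threshold, so the members' sizes and directions are described more than their number. With siZIP7_2 there were 6 members, where 77.8% of all genes passed, and they were 3 higher and 3 lower, against 38.5% and 39.3% of all genes. Between the siRNAs all 10 differed, where 78.7% of all genes did, 3 higher and 7 lower with siZIP7_2 against 38.1% and 40.6%. The median over the members was 0.19 on the log2 scale for siZIP7_1 and -0.09 for siZIP7_2, against -0.01 and -0.00 over all genes. Past the threshold with at least a 1.8-fold change were 2 members with siZIP7_1 (MT1E and SLC30A4) and 3 with siZIP7_2 (MT1X, MT2A and SLC30A6), where 26.3% and 34.8% of all genes were.

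The siRNAs did not give the same picture. MT1X was higher and SLC30A6 lower with both. MTF1, MT2A, SLC30A1 and SLC30A9 passed with both in opposite directions, which 18.7% of all genes did, while 17.7% were higher and 20.8% lower with both. MT1E, SLC30A4, SLC30A5 and SLC30A7 passed with siZIP7_1 and missed the threshold with siZIP7_2, and for each of them the test between the siRNAs passed as well. Of all genes, 70.7% passed with siZIP7_1 and 77.8% with siZIP7_2. The share that passed with siZIP7_1 alone was not counted, so this last pattern has no background to be set against. Both comparisons use the same siNC libraries, so their values are set side by side without a correlation. The plot of expression by library shows every value.

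**Figure D1:**
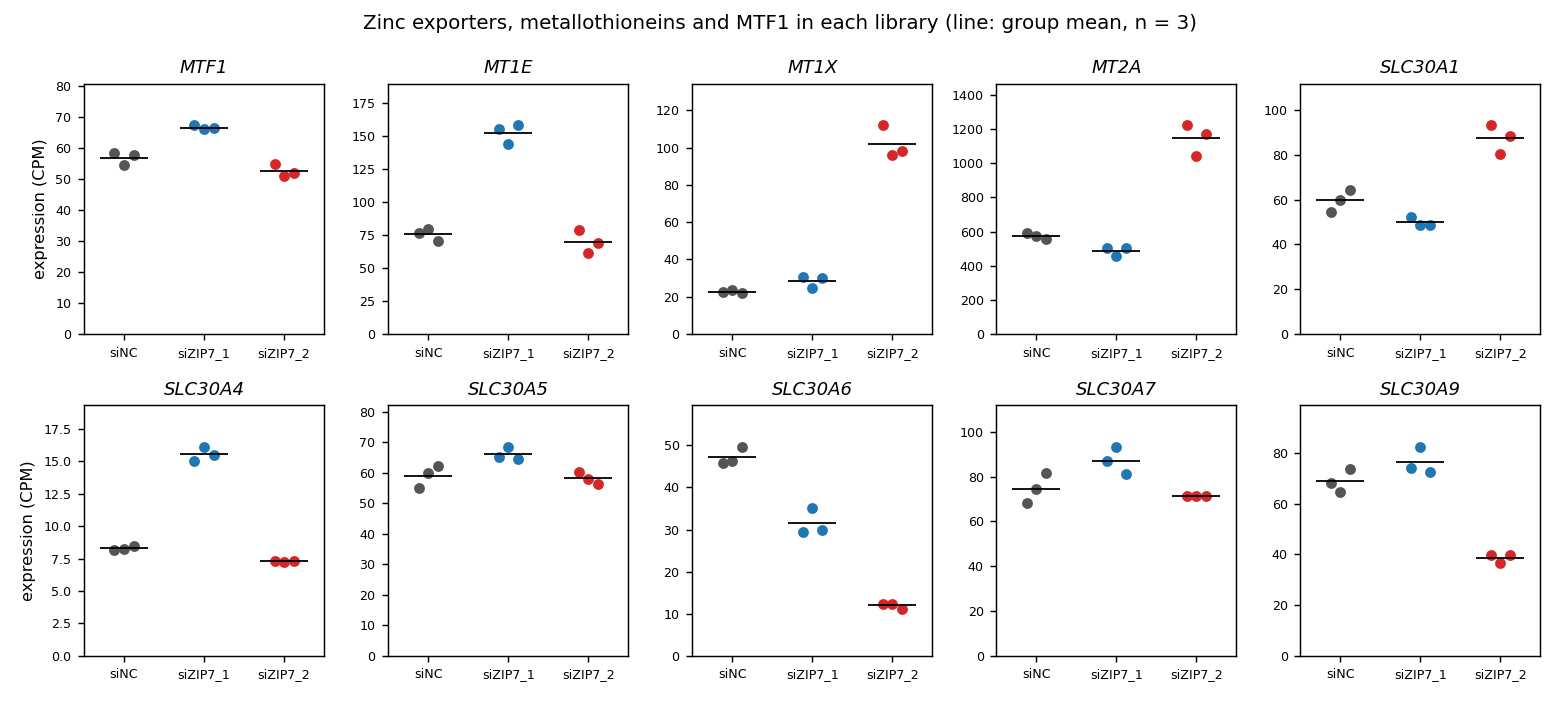
Expression in CPM (y axes, from 0, each with its own scale) of the 10 genes in each of the 9 libraries, by siRNA (x axis); points are libraries and lines are group means (n = 3). MT2A, MT1X and SLC30A1 sit highest with siZIP7_2, MT1E and SLC30A4 with siZIP7_1, and SLC30A6 steps down from siNC to siZIP7_1 to siZIP7_2.

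MT2A (ENSG00000125148, chr16:56608199-56609497 on the plus strand, GRCh38, protein coding) is the major human metallothionein. It was at 593, 573 and 555 CPM with siNC, at 501, 458 and 501 CPM after siZIP7_1 and at 1222, 1042 and 1171 CPM after siZIP7_2. Every siZIP7_2 library was above every siNC library, and every siZIP7_1 library was below them. The level fell with siZIP7_1 (log2 fold change -0.24 ± 0.0545 SE, edgeR adjusted p = 0.000323) and rose to 2.00-fold with siZIP7_2 (1.00 ± 0.0547 SE, edgeR adjusted p = 5.82e-16). Across the alternative settings and the libraries left out in turn the change with siZIP7_2 stayed between 0.95 and 1.10 on the log2 scale.

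MT1X (ENSG00000187193, chr16:56682424-56684196, plus strand), a further isoform of the same cluster, had the largest fold among the members. Its 3 siNC libraries were at 22.3, 23.5 and 22.1 CPM, those of siZIP7_1 at 30.8, 24.6 and 30.3 CPM, and those of siZIP7_2 at 112, 95.9 and 98.4 CPM. The groups did not overlap in any comparison, and the second siZIP7_1 library came nearest to the siNC libraries. MT1X rose with siZIP7_1 (log2 fold change 0.34 ± 0.0766 SE, edgeR adjusted p = 0.000287) and to 4.51-fold with siZIP7_2 (2.17 ± 0.0714 SE, edgeR adjusted p = 4.10e-21). Of its exonic length 18.1% is overlapped on the same strand by the annotated gene AC026461.1, and 18.3% of its 50-base stretches also occur in other annotated genes, so part of its reads could have been left out or split.

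MT1E (ENSG00000169715, chr16:56625475-56627112, plus strand) lies between these genes on the chromosome and did not follow them. Its values were 76.5, 79.4 and 70.7 CPM with siNC, 155, 144 and 158 CPM after siZIP7_1, and 78.4, 61.5 and 68.6 CPM after siZIP7_2. The siZIP7_1 libraries stood above all others, and those of siNC and siZIP7_2 overlapped. MT1E rose to 2.02-fold with siZIP7_1 (log2 fold change 1.01 ± 0.0630 SE, edgeR adjusted p = 1.31e-14). With siZIP7_2 it missed the threshold (-0.12 ± 0.0650 SE, edgeR adjusted p = 0.0903), and without siZIP7_2 library 1, the highest of its group, it passed (-0.21, edgeR adjusted p = 0.00373). It also passed without siNC library 3 (-0.16, edgeR adjusted p = 0.0440) and without siZIP7_1 library 2 (-0.13, edgeR adjusted p = 0.0453).

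The 3 genes made up nearly all metallothionein reads. The other metallothionein genes together held 29 to 45 reads per library. Summed over the family, the level was 673 ± 22.3 CPM (SD, n = 3) with siNC, 669 ± 35.6 CPM after siZIP7_1 and 1318 ± 108 CPM after siZIP7_2, and no test was made of this sum. The siNC libraries (649 to 693 CPM) and the siZIP7_1 libraries (628 to 691 CPM) overlapped, and the siZIP7_2 libraries (1201 to 1414 CPM) lay above both. With overlapping sums, siNC and siZIP7_1 differed in make-up: MT1E held 11.2% ± 0.434 (SD, n = 3) of the metallothionein reads with siNC and 22.8% ± 0.189 with siZIP7_1, and MT2A 85.2% ± 0.583 and 72.8% ± 0.184. With siZIP7_2 the share of MT1E was 5.26% ± 0.246, that of MT2A 86.9% ± 0.520 and that of MT1X 7.75% ± 0.353, where MT1X had held 3.37% ± 0.130 with siNC.

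**Figure D2:**
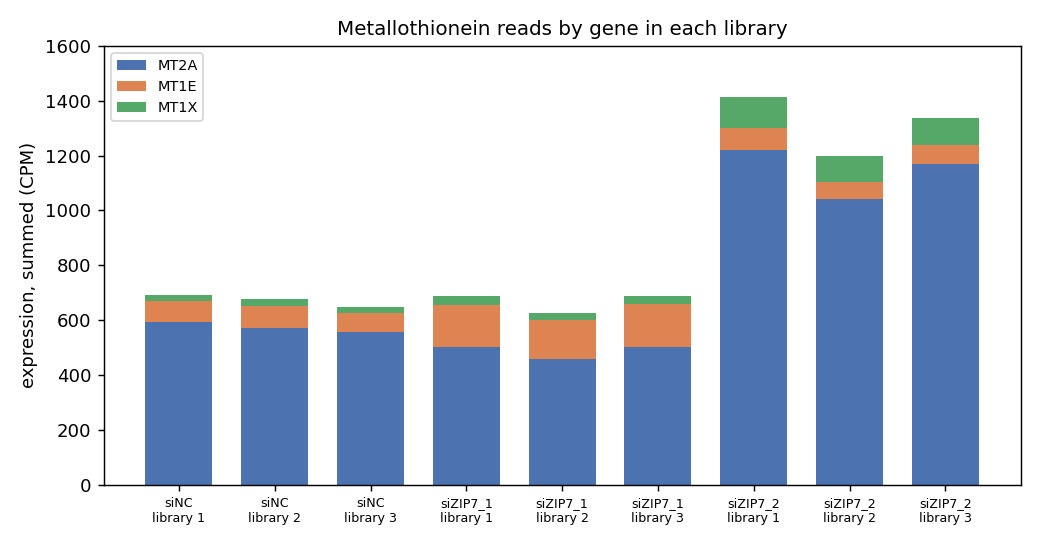
Stacked expression of MT2A, MT1E and MT1X in CPM (y axis, from 0) in each library (x axis), with no error bar since each bar is 1 library. The 3 siZIP7_2 bars reach 1201 to 1414 CPM over the whole family and the others 628 to 693 CPM, and the MT1E segment is thickest in the siZIP7_1 bars.

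Of the other metallothionein genes, MT1A alone passed the low-count filter. It had 29 to 42 reads per library with siNC, 22 to 28 with siZIP7_1 and 28 to 36 with siZIP7_2. MT1A fell with siZIP7_1 (log2 fold change -0.67 ± 0.243 SE, edgeR adjusted p = 0.0162) and was -0.21 ± 0.232 SE with siZIP7_2 (edgeR adjusted p = 0.406). MT1XP1, the only pseudogene of the family that was tested, had 1 to 5 reads with siNC, 0 to 8 with siZIP7_1 and 16 to 17 with siZIP7_2 (edgeR adjusted p = 0.000129 for the last against siNC), and its reads may come in part from MT1X, with which it shares sequence.

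MTF1 binds the metal response element. Its core letters, TGCACNC and TGCGCNC, were searched on both strands in the 250 bases before the RefSeq start (GRCh38.p14) of the 9 members with an entry there, and MT1E had none. MT2A held 7 matches, MT1X 4, and SLC30A1, SLC30A4 and SLC30A6 1 each, while MTF1, SLC30A5, SLC30A7 and SLC30A9 held none. Of 35114 RefSeq promoters of that length, 24.8% held at least 1 match, 0.37% at least 4 and 0.0313% at least 7, so a single match is common and the numbers before MT2A and MT1X are not. No 2 matches in these windows overlap. A match is a description of the letters and does not show binding. RefSeq and GENCODE place some starts differently, so a count holds for the RefSeq window only. The SLC30A5 window lies wholly inside its GENCODE gene (250 bases). The SLC30A1 window reaches down to chr1:211579162, while its GENCODE gene begins at chr1:211578742 on the minus strand, and the bases between were not searched. The sites are printed here, each read along its own strand with up to 3 bases on either side and the 7-base core in capitals, because they are the letters the counts above rest on. By GENCODE the first exon of a longer MT2A transcript covers its whole window, so MT2A is shown by its sites alone.
MT2A, plus strand, chr16:56608335-56608347: cgcTGCACCCagc
MT2A, minus strand, chr16:56608413-56608425: ctcTGCACACggg
MT2A, plus strand, chr16:56608428-56608440: gggTGCGCCCggc
MT2A, plus strand, chr16:56608442-56608454: cagTGCGCGCggc
MT2A, minus strand, chr16:56608493-56608505: gccTGCACACgcc
MT2A, plus strand, chr16:56608527-56608539: tttTGCACTCgtc
MT2A, plus strand, chr16:56608573-56608583: cgcTGCACTCc
MT1X, plus strand, chr16:56682317-56682329: cggTGCGCCCggc
MT1X, plus strand, chr16:56682345-56682357: tgcTGCACCCggc
MT1X, minus strand, chr16:56682389-56682401: cctTGCACCCgcc
MT1X, plus strand, chr16:56682414-56682426: ctcTGCGCCCggc
SLC30A1, plus strand, chr1:211579201-211579213: cttTGCACTCgga
SLC30A4, minus strand, chr15:45522870-45522882: cccTGCGCGCcag
SLC30A6, minus strand, chr2:32165733-32165745: cccTGCACTCcgt

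The longer stretches before MT1X and SLC30A1, the member with most matches outside its annotated transcripts and the exporter known as an MTF1 target, are given 5′ to 3′ along the gene, with the cores in capitals. That of MT1X runs from the start of the window to the first annotated GENCODE exon, and that of SLC30A1 is the whole window.
MT1X, chr16:56682220-56682423, plus strand: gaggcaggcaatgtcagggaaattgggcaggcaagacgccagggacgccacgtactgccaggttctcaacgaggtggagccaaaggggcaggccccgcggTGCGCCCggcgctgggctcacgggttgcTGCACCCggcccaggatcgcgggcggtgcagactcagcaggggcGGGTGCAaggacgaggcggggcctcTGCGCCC
SLC30A1, chr1:211579162-211579411, minus strand: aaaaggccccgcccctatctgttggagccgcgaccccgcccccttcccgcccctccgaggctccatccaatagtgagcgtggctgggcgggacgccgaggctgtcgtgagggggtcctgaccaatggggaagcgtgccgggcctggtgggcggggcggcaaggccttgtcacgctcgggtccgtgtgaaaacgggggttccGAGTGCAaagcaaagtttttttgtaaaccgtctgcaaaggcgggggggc

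**Figure D3:**
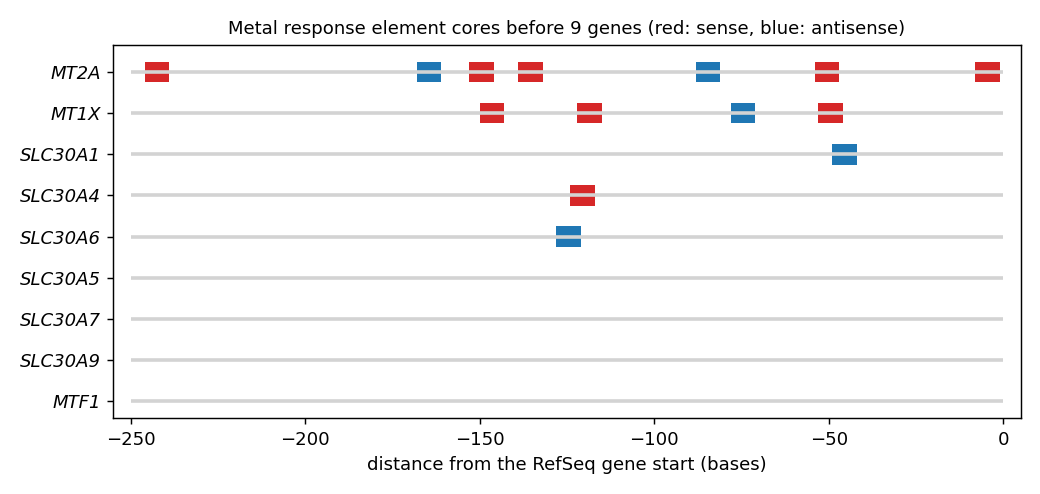
Position of each match to the metal response element core (x axis, bases before the RefSeq gene start) for the 9 genes with a promoter entry (rows), red on the gene's own strand and blue on the opposite one. The 7 matches of MT2A and 4 of MT1X are spread over the window, and SLC30A1, SLC30A4 and SLC30A6 hold 1 each.

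The genes with most matches, MT2A and MT1X, were also those with the largest rises with siZIP7_2, and SLC30A6, which holds 1, had the largest fall among the members with that siRNA. With siZIP7_1 this did not hold: MT2A fell (log2 fold change -0.24) and MT1X rose by 0.34. The largest rise among the members was then that of MT1E (1.01), which had no window to search. These 9 windows are too few for any statement on the element beyond this count.

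MTF1 itself (ENSG00000188786, chr1:37809567-37859620, minus strand) moved little. It was at 58.6, 54.6 and 57.7 CPM with siNC, at 67.4, 66.2 and 66.5 CPM after siZIP7_1 and at 54.8, 50.9 and 52.1 CPM after siZIP7_2. The siZIP7_1 libraries were above all others, and siZIP7_2 library 1 overlapped the siNC range. MTF1 rose to 1.17-fold with siZIP7_1 (log2 fold change 0.23 ± 0.0504 SE, edgeR adjusted p = 0.000247). With siZIP7_2 it fell to 92.2% of the siNC level (-0.12 ± 0.0514 SE, edgeR adjusted p = 0.0400), a call that was lost with DESeq2 (-0.10, adjusted p = 0.147), with each other scaling, with the stricter count filter, with only the pair of groups in the fit, and without siNC library 1 or 3 or siZIP7_2 library 2 or 3 (-0.09 to -0.11, edgeR adjusted p from 0.111 to 0.176). Its level moved in the direction opposite to that of MT2A with each siRNA.

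SLC30A1 (ENSG00000170385, chr1:211571568-211578742, minus strand) encodes ZNT1, the exporter of the plasma membrane. Its values were 54.4, 60.0 and 64.4 CPM with siNC, 52.3, 48.4 and 48.6 CPM after siZIP7_1, and 93.1, 80.2 and 88.4 CPM after siZIP7_2. All siZIP7_2 libraries were above the siNC range and all siZIP7_1 libraries below it, as for MT2A. SLC30A1 fell with siZIP7_1 (log2 fold change -0.26 ± 0.0622 SE, edgeR adjusted p = 0.000493) and rose to 1.46-fold with siZIP7_2 (0.55 ± 0.0606 SE, edgeR adjusted p = 2.77e-09). Between the siRNAs the difference was 0.81 ± 0.0609 SE on the log2 scale, siZIP7_2 minus siZIP7_1 (edgeR adjusted p = 7.04e-13).

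The other exporters serve organelles. SLC30A5 and SLC30A6 encode ZNT5 and ZNT6, which work as a heterodimer in the early secretory pathway, where they load zinc into enzymes such as alkaline phosphatases, and SLC30A7 encodes ZNT7, which does the same as a homodimer. SLC30A4 encodes ZNT4 of endosomal and other vesicles, and SLC30A9 encodes ZNT9 of mitochondria.

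SLC30A6 (ENSG00000152683, chr2:32165841-32224379, plus strand) had the largest change with siZIP7_2 among the 6 member exporters. It was at 45.9, 46.3 and 49.6 CPM with siNC, at 29.5, 35.1 and 29.9 CPM after siZIP7_1 and at 12.4, 12.2 and 11.2 CPM after siZIP7_2. The 3 groups were apart from each other. SLC30A6 fell to 66.6% of siNC with siZIP7_1 (log2 fold change -0.59 ± 0.0651 SE, edgeR adjusted p = 3.77e-09) and to 25.2% with siZIP7_2 (-1.99 ± 0.0735 SE, edgeR adjusted p = 6.19e-20).

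SLC30A5 (ENSG00000145740, chr5:69093646-69131069, plus strand), the partner of SLC30A6, did not fall with it. It was at 55.1, 59.8 and 62.3 CPM with siNC, at 65.3, 68.4 and 64.6 CPM after siZIP7_1 and at 60.3, 57.8 and 56.3 CPM after siZIP7_2. Only the siZIP7_1 libraries cleared the siNC range. SLC30A5 rose to 1.12-fold with siZIP7_1 (log2 fold change 0.16 ± 0.0532 SE, edgeR adjusted p = 0.00811), a call lost without siNC library 1 (0.11, edgeR adjusted p = 0.0969), and was -0.02 ± 0.0538 SE with siZIP7_2 (95% interval -0.13 to 0.09, edgeR adjusted p = 0.706). Per kilobase of exon, the ratio of SLC30A5 to SLC30A6 was 1.17 ± 0.0427 (SD, n = 3) with siNC, 1.97 ± 0.132 with siZIP7_1 and 4.57 ± 0.144 with siZIP7_2, with no overlap between groups and no test made of the ratio. An antisense gene, AC010273.1, covers 9.2% of the exonic length of SLC30A5, and since the counting strand is not given in the sources used here, reads of the pair cannot be told apart there.

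SLC30A7 (ENSG00000162695, chr1:100896076-100981753, plus strand) changed by sizes like those of SLC30A5. Its libraries were at 68.0, 74.5 and 81.5 CPM with siNC, 87.2, 93.2 and 81.0 CPM after siZIP7_1 and 71.2, 71.4 and 71.4 CPM after siZIP7_2. The ranges of siZIP7_1 and siNC overlapped, and that of siZIP7_2 lay inside that of siNC. SLC30A7 rose to 1.17-fold with siZIP7_1 (log2 fold change 0.22 ± 0.0583 SE, edgeR adjusted p = 0.00131) and was -0.07 ± 0.0590 SE with siZIP7_2 (95% interval -0.19 to 0.06, edgeR adjusted p = 0.311). Without siNC library 1 the latter passed the threshold (-0.14, edgeR adjusted p = 0.0414), and without siNC library 3 it was 0.0088 (edgeR adjusted p = 0.905).

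SLC30A4 (ENSG00000104154, chr15:45479611-45522807, minus strand) was the scarcest member. Its libraries were at 8.17, 8.25 and 8.44 CPM with siNC, 15.0, 16.1 and 15.5 CPM after siZIP7_1 and 7.34, 7.20 and 7.34 CPM after siZIP7_2. The 3 groups did not overlap, though those of siNC and siZIP7_2 were close. SLC30A4 rose to 1.88-fold with siZIP7_1 (log2 fold change 0.91 ± 0.0812 SE, edgeR adjusted p = 4.54e-11) and missed the threshold with siZIP7_2 (-0.18 ± 0.0904 SE, edgeR adjusted p = 0.0646). Antisense transcripts overlap 4.32% of its exonic length.

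SLC30A9 (ENSG00000014824, chr4:41990472-42090457, plus strand) was at 68.3, 64.6 and 73.5 CPM with siNC, at 74.1, 82.3 and 72.5 CPM after siZIP7_1 and at 39.8, 36.6 and 39.7 CPM after siZIP7_2. The siZIP7_2 libraries were below all others, and siZIP7_1 library 3 lay inside the siNC range. SLC30A9 fell to 56.2% of siNC with siZIP7_2 (log2 fold change -0.83 ± 0.0600 SE, edgeR adjusted p = 3.03e-13). With siZIP7_1 it rose to 1.11-fold (0.15 ± 0.0569 SE, edgeR adjusted p = 0.0226), a call lost with DESeq2 (0.15, adjusted p = 0.0597) and without siNC library 1 (0.14, edgeR adjusted p = 0.0583), siNC library 2 (0.11, edgeR adjusted p = 0.128) or siZIP7_1 library 2 (0.09, edgeR adjusted p = 0.163).

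**Figure D4:**
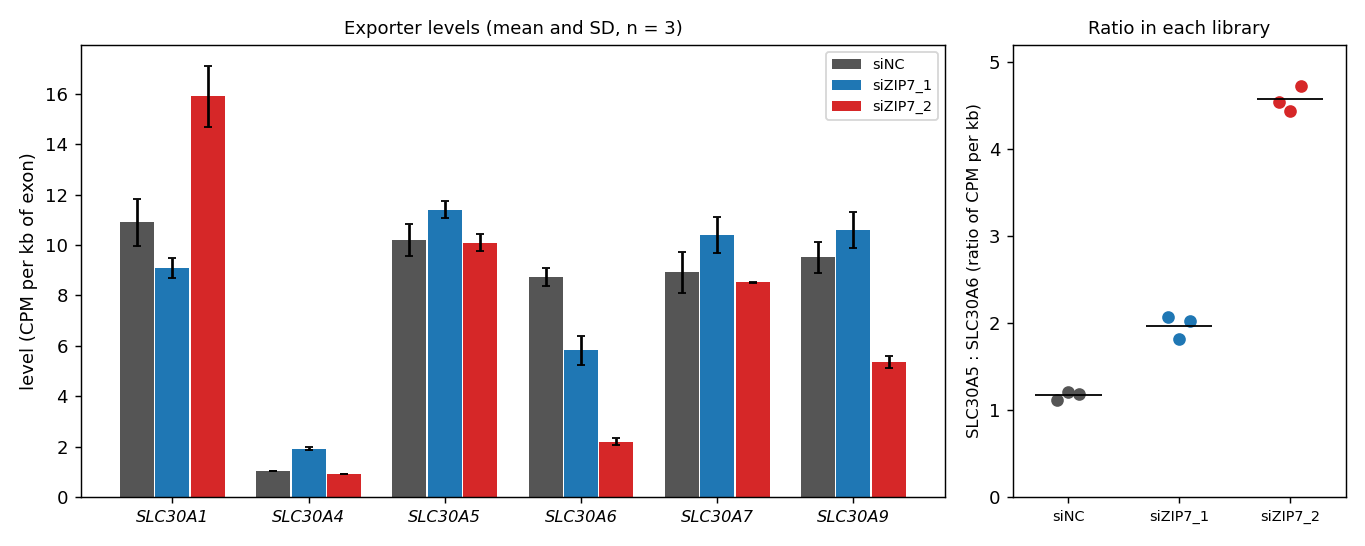
Left, level of the 6 exporters in CPM per kilobase of exon (y axis, from 0) by siRNA, as mean and SD of 3 libraries; right, ratio of SLC30A5 to SLC30A6 per kilobase in each library, with lines at the group means. SLC30A1 has its highest level and SLC30A6 its lowest with siZIP7_2, and the ratio is 1.17 with siNC, 1.97 with siZIP7_1 and 4.57 with siZIP7_2.

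The ranges of siZIP7_1 and siNC were apart for 8 members (5 higher, 3 lower), where 72.1% of all genes were apart (35.5% higher, 36.5% lower). Those of siZIP7_2 and siNC were apart for 6 members (3 higher, 3 lower), where 78.7% were (38.9% higher, 39.9% lower). Between the siRNAs they were apart for all 10 members (3 higher, 7 lower), where 79.7% were (38.5% higher, 41.2% lower).

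The differences between the siRNAs, siZIP7_2 minus siZIP7_1 on the log2 scale, were 1.84 ± 0.0687 SE for MT1X (edgeR adjusted p = 4.76e-20), 1.23 ± 0.0550 SE for MT2A (edgeR adjusted p = 3.12e-18) and -1.13 ± 0.0632 SE for MT1E (edgeR adjusted p = 6.55e-16). The signs split the metallothioneins, with MT1X and MT2A higher after siZIP7_2 and MT1E higher after siZIP7_1. Among the exporters the differences were -1.40 ± 0.0751 SE for SLC30A6 (edgeR adjusted p = 2.63e-16), -1.09 ± 0.0822 SE for SLC30A4 (edgeR adjusted p = 7.15e-13) and -0.98 ± 0.0594 SE for SLC30A9 (edgeR adjusted p = 4.74e-15). At least 1.8-fold and past the threshold between the siRNAs were these 6 members, where 36.9% of all genes were.

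**Figure D5:**
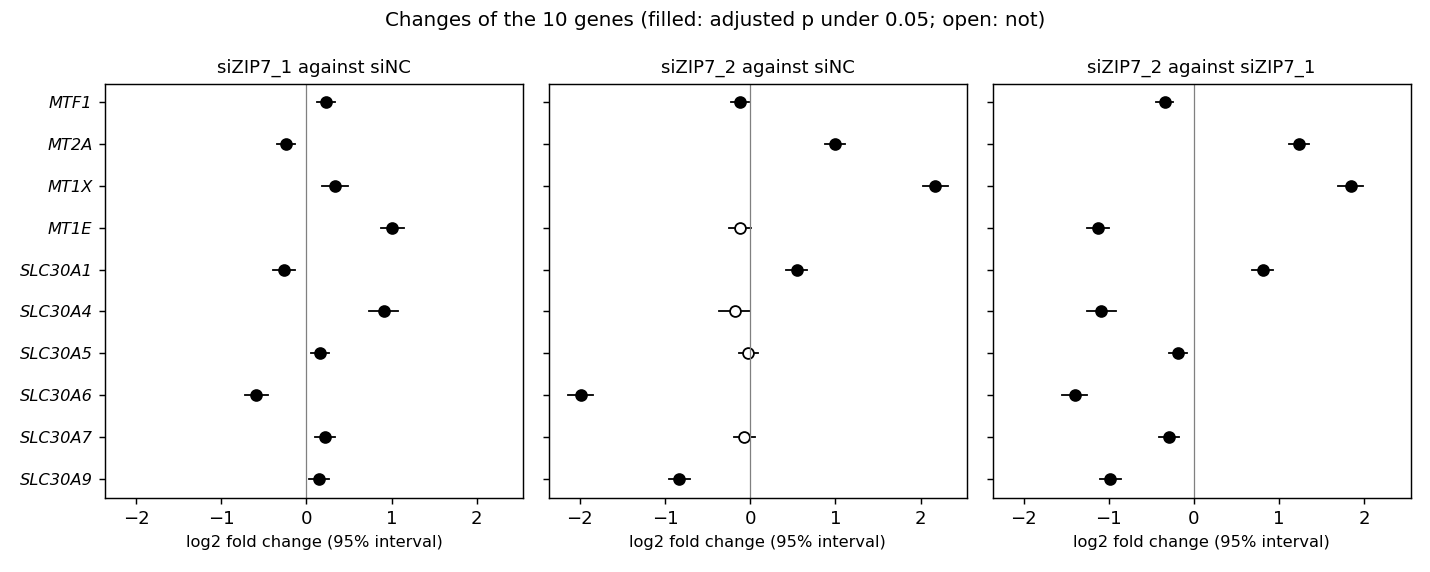
Log2 fold change (x axes) of the 10 genes (rows) in the 3 comparisons, with 95% intervals from the edgeR fit; filled points have an adjusted p under 0.05. With siZIP7_1 most members lie within 0.6 of 0, apart from MT1E at 1.01 and SLC30A4 at 0.91, and with siZIP7_2 the spread runs from -1.99 (SLC30A6) to 2.17 (MT1X).

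The study's own filter asks for 4 samples with a change of at least 1.8-fold. Here it was read as 1.8-fold from siNC, in the same direction, in at least 4 of the 6 siZIP7 libraries on log2(CPM + 1). No member passed this version, where 2.80% of all genes passed as higher (470) and 2.88% as lower (483). The study reports more genes in each direction, so its lists were not reproduced. Whether its own filter kept any member cannot be told from this version. MT1E, MT1X and MT2A were past 1.8-fold higher in 3 of the 6 libraries, which were those of siZIP7_1 for MT1E and those of siZIP7_2 for MT1X and MT2A, and SLC30A6 was past 1.8-fold lower in 3. Any gene that responds to 1 siRNA alone reaches at most 3 of 6 and is missed by the filter as read here.

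Per kilobase of exon, the order with siNC was MT2A (442 CPM per kb), MT1E (71.8), MT1X (12.8), SLC30A1 (10.9), SLC30A5 (10.2), SLC30A9 (9.52), SLC30A7 (8.91), SLC30A6 (8.74), MTF1 (7.10) and SLC30A4 (1.03). The length is that of all annotated exons of a gene joined: 1773 bases for MT1X, 1299 for MT2A and 1052 for MT1E. The transcripts present may be shorter, so this order is not a ranking of transcript numbers. From SLC30A1 to SLC30A6 the ranges of neighbours over libraries overlapped, and all other neighbours were apart. With siZIP7_1 the order below MT1X was SLC30A5 (11.4 CPM per kb), SLC30A9 (10.6), SLC30A7 (10.4), SLC30A1 (9.09), MTF1 (8.31), SLC30A6 (5.82) and SLC30A4 (1.92), with overlap among the first 3 of these. With siZIP7_2 MT1X reached 57.6 CPM per kb and overlapped MT1E at 66.1, and SLC30A1 (15.9), SLC30A5 (10.1), SLC30A7 (8.52), MTF1 (6.56), SLC30A9 (5.36), SLC30A6 (2.20) and SLC30A4 (0.904) followed with no overlap between neighbours. MT1X, the lowest of the 3 metallothioneins, was thus apart from the highest exporter in each group. The values were near each other with siNC (12.8 and 10.9 CPM per kb) and siZIP7_1 (16.1 and 11.4), and further apart with siZIP7_2 (57.6 and 15.9). The 6 exporters summed to 49.3 ± 3.09 CPM per kb (SD, n = 3) with siNC, 49.2 ± 2.26 with siZIP7_1 and 43.0 ± 1.63 with siZIP7_2, with no test made of the sum.

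SLC30A3, SLC30A10 and TMEM163 were the other exporters tested. SLC30A3, which loads synaptic vesicles in neurons, had 9 to 19 reads per library with siNC, 43 to 63 with siZIP7_1 and 31 to 38 with siZIP7_2. It rose with both siRNAs (log2 fold changes 1.70 ± 0.242 SE and 1.18 ± 0.261 SE, edgeR adjusted p = 3.57e-07 and 0.000191). SLC30A10, mainly a manganese exporter, had 4 to 8 reads with siNC, 8 to 12 with siZIP7_1 and 18 to 21 with siZIP7_2, and rose with siZIP7_2 (1.69 ± 0.366 SE, edgeR adjusted p = 0.000134). TMEM163, a zinc transporter related to the SLC30 family, was at 15.0, 13.1 and 14.9 CPM with siNC, 2.00, 1.99 and 2.20 CPM after siZIP7_1 and 3.11, 3.59 and 3.31 CPM after siZIP7_2. Its groups were apart, and it fell to 14.4% and 23.3% of siNC (log2 fold changes -2.79 ± 0.114 SE and -2.10 ± 0.106 SE, edgeR adjusted p = 6.39e-19 and 8.56e-17). SLC30A2 and SLC30A8 had at most 1 read in any library and were not tested.

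Among the 11 SLC39 importers tested of 14, 2 were higher and 7 lower with siZIP7_1, SLC39A7 included, and 7 were higher and 1, SLC39A7, lower with siZIP7_2. Over all genes, 34.8% were higher and 35.9% lower with siZIP7_1, and 38.5% and 39.3% with siZIP7_2. SLC39A14, an importer of zinc, iron and manganese at the cell surface, was at 209, 213 and 214 CPM with siNC, 69.6, 73.0 and 68.4 CPM after siZIP7_1 and 284, 281 and 297 CPM after siZIP7_2. It fell with the first siRNA (log2 fold change -1.59 ± 0.0473 SE, edgeR adjusted p = 3.98e-22) and rose with the second (0.44 ± 0.0447 SE, edgeR adjusted p = 5.77e-10), the same signs as MT2A and SLC30A1. SLC39A9, an importer found at the cell surface and the Golgi, moved likewise (-1.08 ± 0.0477 SE and 0.37 ± 0.0456 SE, edgeR adjusted p = 4.38e-18 and 2.01e-08).

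Of 3 tested genes listed as MTF1-regulated besides the members, 1 was higher and 1 lower with siZIP7_1 and 3 were higher with siZIP7_2. The shares of all genes were 34.8% higher and 35.9% lower with siZIP7_1, and 38.5% and 39.3% with siZIP7_2. PGF, a growth factor of the VEGF family, was at 7.12, 6.36 and 6.48 CPM with siNC, 7.50, 6.77 and 8.03 CPM after siZIP7_1 and 12.9, 12.1 and 12.5 CPM after siZIP7_2, and rose with siZIP7_2 (log2 fold change 0.91 ± 0.0933 SE, edgeR adjusted p = 6.49e-10). GCLC, a subunit of the enzyme that starts glutathione synthesis, rose with both (0.31 ± 0.0595 SE and 0.58 ± 0.0591 SE, edgeR adjusted p = 3.32e-05 and 4.70e-10). SLC39A10, an importer that MTF1 represses, is also in these counts. It fell with siZIP7_1 (-0.88 ± 0.0735 SE, edgeR adjusted p = 1.14e-11) and rose with siZIP7_2 (0.55 ± 0.0679 SE, edgeR adjusted p = 2.56e-08), where MT2A moved the same way in both. The counts thus mix directions of regulation, and the activity of MTF1 was not tested.

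Enzymes that receive zinc in the secretory pathway, listed together with the chaperone ERP44, were split. ERP44 is in the counts that follow and was higher with both siRNAs (log2 fold changes 0.30 ± 0.0560 SE and 0.27 ± 0.0563 SE). Of 6 tested of 11, 2 were higher and 3 lower with siZIP7_1, and 3 were higher and 1 lower with siZIP7_2. Over all genes, 34.8% were higher and 35.9% lower with siZIP7_1, and 38.5% and 39.3% with siZIP7_2. ALPP, placental alkaline phosphatase, was at 1.23, 0.773 and 1.14 CPM with siNC and at 30.8, 19.7 and 32.4 CPM after siZIP7_1, a 25.9-fold rise (log2 fold change 4.70 ± 0.181 SE, edgeR adjusted p = 1.76e-19), and at 0.970, 0.954 and 0.846 CPM after siZIP7_2 (-0.20 ± 0.335 SE, edgeR adjusted p = 0.594). ENPP1, an ectoenzyme that makes pyrophosphate, was at 201, 210 and 222 CPM with siNC and fell to 27.7% and 17.6% of that level (-1.85 ± 0.0496 SE and -2.50 ± 0.0520 SE, edgeR adjusted p = 3.34e-23 and 1.28e-25). CA9, a carbonic anhydrase of the cell surface, fell with siZIP7_1 from 32 to 51 reads per library to 6 to 14 (-2.31 ± 0.319 SE, edgeR adjusted p = 2.21e-07). MMP9, a secreted zinc metalloproteinase named here after its values were seen, had 13 to 18 reads per library with siNC, 1 to 3 with siZIP7_1 and 303 to 358 with siZIP7_2. It rose with siZIP7_2 (4.32 ± 0.158 SE, edgeR adjusted p = 4.41e-20) and fell with siZIP7_1 (fitted log2 fold change -3.02 ± 0.447 SE, edgeR adjusted p = 7.08e-07, a size that depends on the prior count at so few reads). Of the exonic lengths, 38.5% for CA9, 20.6% for ALPP and 18.4% for MMP9 are overlapped by genes of the opposite strand, and ALPP shares 33.6% of its 50-base words with other genes, mainly ALPG, so their reads could be split or mixed.

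Metallothioneins also respond to copper, to glucocorticoids and to heat and oxidative stress, so these lists were read beside them. Of 7 copper handling genes, 5 were higher and 1 lower with siZIP7_1, and 3 were higher and 2 lower with siZIP7_2. The shares of all genes were 34.8% higher and 35.9% lower with siZIP7_1, and 38.5% and 39.3% with siZIP7_2. SLC31A2, a copper transporter of endosomes and lysosomes, rose with both (log2 fold changes 1.14 ± 0.0693 SE and 1.84 ± 0.0673 SE, edgeR adjusted p = 8.03e-15 and 4.98e-20), the copper pump ATP7B rose with siZIP7_1 (0.90 ± 0.107 SE, edgeR adjusted p = 1.49e-08) and its relative ATP7A fell with siZIP7_2 (-0.64 ± 0.0744 SE, edgeR adjusted p = 7.34e-09). FKBP15 overlaps 63.1% of the exonic length of SLC31A2 on the opposite strand, so the SLC31A2 values are uncertain.

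Of 6 tested of 7 glucocorticoid-responsive genes, 2 were higher and 3 lower with siZIP7_1 and 5 were higher and 1 lower with siZIP7_2. Over all genes, 34.8% were higher and 35.9% lower with siZIP7_1, and 38.5% and 39.3% with siZIP7_2. DUSP1, a phosphatase of MAP kinases, rose with both (log2 fold changes 1.46 ± 0.0534 SE and 2.08 ± 0.0533 SE, edgeR adjusted p = 4.61e-20 and 1.41e-23). SGK1, a kinase that regulates ion channels, was at 30.2, 26.9 and 31.0 CPM with siNC, 25.2, 24.7 and 25.5 CPM after siZIP7_1 and 170, 179 and 179 CPM after siZIP7_2, lower in the first case and 5.98-fold higher in the second (-0.23 ± 0.0601 SE and 2.58 ± 0.0548 SE, edgeR adjusted p = 0.00137 and 2.04e-25). FKBP5, a chaperone of the glucocorticoid receptor, fell with both (-1.34 ± 0.0559 SE and -0.59 ± 0.0536 SE, edgeR adjusted p = 1.05e-18 and 4.19e-11).

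Of 6 genes of metal and heat stress, 4 were higher and 2 lower with siZIP7_1, and 5 were higher and none lower with siZIP7_2. The shares of all genes were 34.8% higher and 35.9% lower with siZIP7_1, and 38.5% and 39.3% with siZIP7_2. HMOX1, heme oxygenase 1, was at 15.1, 16.4 and 16.3 CPM with siNC, 28.2, 27.4 and 24.6 CPM after siZIP7_1 and 42.0, 35.5 and 38.9 CPM after siZIP7_2, and it rose with both (log2 fold changes 0.75 ± 0.0743 SE and 1.28 ± 0.0726 SE, edgeR adjusted p = 4.39e-10 and 1.18e-15). HSPA1A, an inducible heat shock protein, rose with both as well (0.34 ± 0.0744 SE and 1.23 ± 0.0708 SE, edgeR adjusted p = 0.000204 and 1.65e-15), but 71.3% of its 50-base words also occur in other genes, its near-identical copy HSPA1B first, so its count is uncertain. GCLM, the second subunit of the glutathione enzyme, fell with siZIP7_1 (-1.01 ± 0.0666 SE, edgeR adjusted p = 5.06e-14) and was -0.01 ± 0.0639 SE with siZIP7_2 (edgeR adjusted p = 0.894). The part of copper, glucocorticoid and stress signals in the metallothionein levels was not tested.

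Genes with a profile close to a member's were found by distance between the 3 group means of log2(CPM + 1), each set to 0 at siNC, among 13735 genes. Among the nearest to MT2A were TMEM92-AS1 and ZNF140, at distances of 0.0203 and 0.0399, and 19 genes lay within 0.1. For MT1X they were AC090192.2, MIR29B2CHG and MED12L (0.0175 to 0.0754, 6 genes within 0.1), and for MT1E they were TNFAIP1, SLC35E2A and FRAS1 (0.0248 to 0.0276, 34 within 0.1). The metallothioneins are not each other's neighbours. The profiles nearest to SLC30A1 were those of ZNF684, CHMP4B and AC006460.2 (0.00204 to 0.0163, 84 within 0.1), and those nearest to MTF1 were of ZGLP1, NAA16 and a gene with no symbol (0.0109 to 0.0164, 161 within 0.1). No other member is among these, and with 3 group means a small distance is easily met.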

How the data were processed

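RNA of MDA-MB-231 cells was sequenced as single reads. The authors deposited, for every library, raw read counts per Ensembl gene that were not normalized. The submitters' processing notes name Trim Galore 0.4.1, FastQC 0.11.2, STAR, HTSeq 0.6.1 and DESeq2 1.16.1. The genome build and the counting strand are not given in the sources used here. HTSeq's summary lines were left out of all totals and list 0 reads with several alignments and 2.66% to 2.91% ambiguous reads.

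GENCODE release 29 (GRCh38) held 58275 of the 58395 identifiers and was the source of symbols, positions, exonic lengths and overlaps. The analysis used edgeR 4.0.16 in R 4.3.3, with TMM, the filter on low counts over groups and the quasi-likelihood test in one model of the 9 libraries (6 residual degrees of freedom). CPM values use TMM-scaled library sizes. The steps were tested on simulated data. The members, gene lists and tests were chosen with earlier results of these data known. Named are all members, SLC39A7, every tested gene of the other exporter and metallothionein lists, at most 3 genes with the largest mean change from each further list, and the 3 nearest profiles of 5 members, and some genes that this rule or the marker list holds are not reported here. RefSeq promoters (GRCh38.p14) matched 9 of 10 members.

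Alternatives were DESeq2 1.42.0, its size factors in edgeR, upper-quartile scaling, library size alone, dropping the count filter, asking for 10 counts in every library, a replicate block, glmTreat at 1.8-fold, fitting only the pair compared and leaving out each library. The 1.8-fold filter was rerun with a pseudocount of 0.1 in place of 1, with 2-fold, without TMM and with all 6 siZIP7 libraries.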

Additional observations from a re-analysis of the deposited data

Results flagged for a closer look

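For each of the 10 members, the change from siNC differed between the siRNAs by edgeR's test of the difference itself, which 78.7% of all genes tested also passed. Written as siZIP7_2 minus siZIP7_1 on the log2 scale, the difference was -0.34 for MTF1, -1.13 for MT1E, 1.84 for MT1X and 1.23 for MT2A. Among the exporters it was 0.81 for SLC30A1, -1.09 for SLC30A4, -0.19 for SLC30A5, -1.40 for SLC30A6, -0.29 for SLC30A7 and -0.98 for SLC30A9. MT1X, MT2A and SLC30A1 were thus higher with siZIP7_2 and the other 7 higher with siZIP7_1.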

How the results depend on the processing

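Of 540 member values under the alternatives, 493 kept their direction and side of the threshold, 32 lost the call, 6 gained it and 9 changed sign, all 9 of them for values that had missed the threshold with siZIP7_2. SLC30A5 turned to 0.0095 with DESeq2's size factors, 0.08 with upper-quartile scaling, 0.0090 with library size alone, 0.05 with at least 10 counts in every library, and from -0.08 (without siNC library 1) to 0.02 (without siNC library 3) with libraries left out, with 0.0043 without siZIP7_2 library 3. SLC30A7 turned to 0.04 and 0.0088 with upper-quartile scaling and at least 10 counts, and ranged from -0.14 to 0.0088 with libraries left out. Tested against a 1.8-fold change (glmTreat), 2836, 4134 and 4725 genes and 1, 3 and 6 members passed with siZIP7_1, with siZIP7_2 and between the siRNAs, a stricter question by construction. With libraries left out in turn, 11291 to 11984, 12633 to 13360 and 12840 to 13458 genes passed, and 8 to 10, 5 to 7 and 10 members each time. The 1.8-fold filter passed 0 to 3 members, 3 (MT1X, MT2A and SLC30A6) when a siZIP7_1 library was left out and 1 (MT1E) when a siZIP7_2 library was, since 3 of the 5 libraries left then sufficed. Of all genes, 5.69% passed with all libraries, 19.6% without a siZIP7_1 library and 14.8% without a siZIP7_2 library. With the replicate number as a block, MT1E passed with siZIP7_2 (-0.12, edgeR adjusted p = 0.0487) and no other member call changed, and 11927, 13080 and 13242 genes passed. Libraries of the same number correlated at 0.0235 on average after group means were removed (-0.124 to 0.131), so the numbers were not taken as pairs. Without a low-count filter MT1E also passed (-0.17, edgeR adjusted p = 0.00434), and SLC30A5 lost its call between the siRNAs with upper-quartile scaling (-0.10, edgeR adjusted p = 0.0688), which moved the median of all genes by up to 0.10. The causes were not tested. Members had at least 189 reads in every library.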
